A study of Drosophila melanogaster with 8 samples.

Results

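Muc11A, mat, Ag5r and CG34296 are 4 genes of Drosophila melanogaster. All lay above the array median on both arrays of old control hearts and below it on nearly all other arrays of the study. They were chosen by name, out of 11982 genes with a probe set of 1 gene symbol, because their signal was higher in control hearts at 5 weeks than at 1 week and lower in FOXO hearts than in control hearts at 5 weeks. Each of the 4 was measured by 1 probe set, and no other probe set of the array named it. Muc11A (Dmel_CG32656) and Ag5r (Dmel_CG9538) lie on the X chromosome, mat (Dmel_CG13905) on 3L and CG34296 (Dmel_CG34296) on 3R.

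Mucins are heavily glycosylated proteins that coat epithelia, and Muc11A carries the mucin name. Ag5r is an antigen 5 related gene, a member of the CAP superfamily of secreted proteins that takes its name from a wasp venom allergen. The gene mat, also called Materazzi, encodes a lipid-binding protein that, in the fly, takes part in the clearance of damaged lipids through the Malpighian tubules, the insect kidney. CG34296 is known here only by its number, and no role is given for it.

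The arrays measured RNA of hearts dissected from adult flies that the labels call female, with 2 arrays in each of 4 groups. Control flies came from GMH5 crossed to yw, and FOXO flies from GMH5 crossed to FOXO, each at 1 week and at 5 weeks, so that every group carries GMH5, a line that drives transgenes in the heart. FOXO is the transcription factor held in check by insulin signalling, and the study's title speaks of its titered overexpression. The labels do not name the promoter in GMH5 or the FOXO transgene, and give no number of flies per array. Fat and pericardial cells were drawn off before the hearts were taken, and the RNA was amplified. Markers of both were still bright on all arrays. Fat body markers had medians of 12.59 to 13.04, and markers of nephrocytes, the type of pericardial cells, 9.29 to 10.23. In dissected tissue of this kind, fewer cells of a type and less RNA per cell cannot be told apart.

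Several arrays stood apart. The replicates of FOXO 1 week correlated at 0.963 over all probe sets, against 0.995 to 0.997 in the other groups. Of the 29 late spermatogenesis markers 27 were measured. Their median lay between 8.51 and 9.68 on the control 1 week and FOXO 5 weeks arrays and between 4.69 and 6.09 on the rest, although the labels call all flies female. The 5 female-specific markers of fat body and oenocytes had medians of 6.18 to 6.75 on the control 1 week arrays and FOXO 1 week replicate 2, and of 13.03 to 13.44 elsewhere. The 10 measured oocyte and nurse cell markers stood at a median of 11.16 on 1 array, replicate 1 of FOXO 1 week, and at or below 7.45 on the other 7. Of the 8 heart markers 7 were measured, with medians of 9.29 to 10.47. Hand, a cardiac transcription factor, lay between 13.04 and 13.33 on all arrays, and prc, which encodes the matrix protein pericardin, between 3.69 and 4.96. The median difference of the heart list with age in control hearts was -0.59, against 0.05 over all probe sets. There 0 of the 7 were called, where 6.91% of all probe sets were, though the count moved without a FOXO 1 week array. With age in FOXO hearts mid, a T-box factor, was called lower, where 5.82% of all probe sets were. That call was not kept without FOXO 5 weeks replicate 2. The foxo probe set lay between 10.22 and 10.87 and did not pass the test in any of the 4 comparisons. It is not known here whether that probe set reads the transgene.

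Muc11A had a log2 signal of 10.69 and 11.32 on the control 5 weeks arrays. On the control 1 week arrays it read 4.73 and 4.28, and on the FOXO 5 weeks arrays 4.70 and 4.62. The FOXO 1 week arrays read 7.12 and 4.88. Both old control arrays therefore lay above all 6 others, and the next highest value was FOXO 1 week replicate 1, the array that also carried the oocyte transcripts. Among the other 3 groups, control 1 week (4.50 ± 0.31, SD, n = 2) and FOXO 5 weeks (4.66 ± 0.06) overlapped, and FOXO 1 week had an SD of 1.58 about its mean. The replicate difference of 2.24 in FOXO 1 week was larger than that of 97.8% of probe sets on these arrays.

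The lipid-binding gene mat read 8.75 and 9.02 on the control 5 weeks arrays. Young control hearts read 3.73 and 3.22, young FOXO hearts 3.92 and 3.28, and old FOXO hearts 4.14 and 4.55. The groups at 1 week overlapped, FOXO 5 weeks lay above both of them, and old control hearts lay far above all. Of all probe sets, FOXO 5 weeks lay above FOXO 1 week without overlap for 19.9% and above control 1 week for 25.9%. The means in the same order were 8.89 ± 0.19, 3.47 ± 0.36, 3.60 ± 0.45 and 4.35 ± 0.29.

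Ag5r, the CAP gene, read 9.59 and 9.85 on the control 5 weeks arrays. Control 1 week read 5.26 and 4.85, FOXO 1 week 5.92 on both arrays, and FOXO 5 weeks 6.19 and 6.39. Its 4 groups did not overlap, and from the lowest up they ran control 1 week (5.06 ± 0.29), FOXO 1 week (5.92 ± 0.001), FOXO 5 weeks (6.29 ± 0.14) and control 5 weeks (9.72 ± 0.18). The top place of control 5 weeks follows from the choice. Of all probe sets, 24.4% were higher without overlap in FOXO than in control hearts at 1 week. With age in FOXO hearts 19.9% were. The share with this order of all groups was not computed. The 3 lower groups spanned 1.54 on the log2 scale between their extreme arrays, and the gap from them to old control hearts was 3.20.

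CG34296 read 8.83 and 8.95 on the control 5 weeks arrays. Control 1 week read 4.14 and 4.59, FOXO 1 week 3.98 and 4.49, and FOXO 5 weeks 4.69 and 4.71. The 2 groups at 1 week overlapped, and FOXO 5 weeks lay above them by 0.10 between the nearest arrays, less than either replicate difference at 1 week (0.45 and 0.51). The means were 8.89 ± 0.09, 4.36 ± 0.32, 4.24 ± 0.36 and 4.70 ± 0.01.

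**Figure D1:**
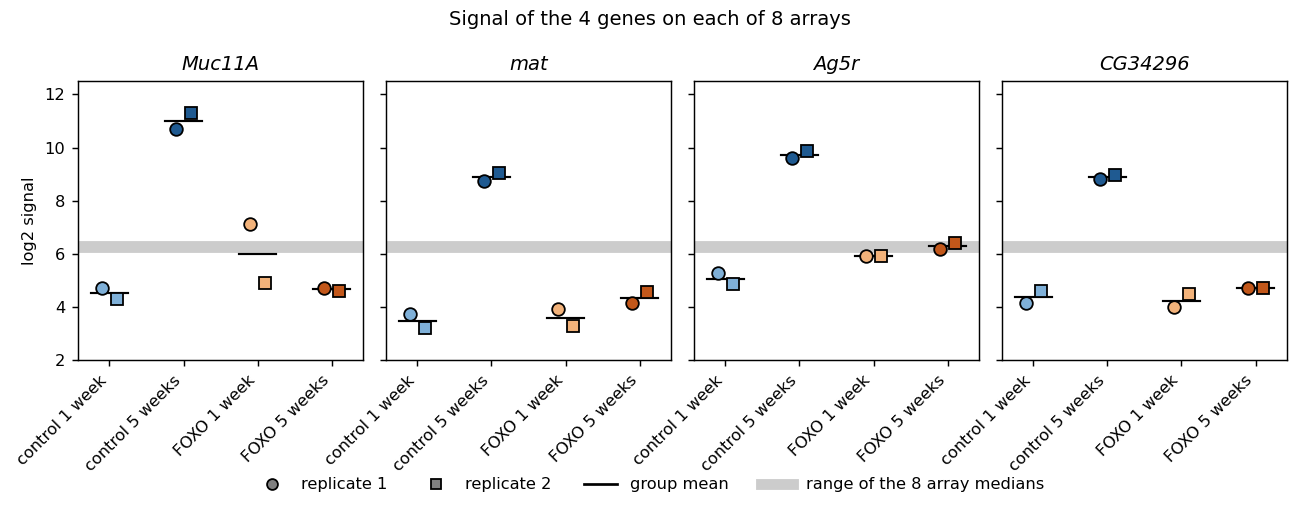
Log2 signal of Muc11A, mat, Ag5r and CG34296 (y axis) on each array, by group (x axis), with circles for replicate 1, squares for replicate 2, bars for group means and a grey band for the range of the 8 array medians, 6.05 to 6.43. Both control 5 weeks arrays lie above the other 6 for every gene; among those 6, Muc11A on FOXO 1 week replicate 1, at 7.12, is the highest value, and the smallest gap, 3.20, is that of Ag5r.

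The dim values set a limit on the size of the folds. All 4 genes lay above the array median on both control 5 weeks arrays. On the other arrays they lay below it in all but 1 case, Muc11A on FOXO 1 week replicate 1. Ag5r was only just below it on the FOXO arrays, between percentiles 48.48 and 49.75 of the probe sets. The deposited table gives no detection calls. On an array a fold is compressed where the dim side is near background, and whether it is near background was not tested.

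The pair of comparisons that chose the genes gave the following differences, which are a description and carry no test. From 1 to 5 weeks in control hearts, Muc11A was higher by 6.50 on the log2 scale (90.5-fold), mat by 5.42 (42.7-fold), Ag5r by 4.66 (25.3-fold) and CG34296 by 4.52 (23.0-fold). At 5 weeks the FOXO minus control difference was -6.35 for Muc11A, -4.54 for mat, -4.19 for CG34296 and -3.43 for Ag5r. Of the 18769 probe sets tested, 2.34% were called higher with age in control hearts and 3.07% lower in FOXO hearts at 5 weeks, at an adjusted p under 0.05. The arrays did not overlap in that direction for 34.1% and 45.1% of probe sets. All 4 genes met each of these criteria, which the choice fixes. Both comparisons use the control 5 weeks arrays, so a high value on them raises one difference and lowers the other.

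Of the 11982 genes, 116 (0.968%) were called both higher with age in control hearts and lower in FOXO hearts at 5 weeks. Ranked by the smaller of the 2 changes, the 4 genes were the first 4. They were chosen on these 2 changes, so their rank is a description and carries no test. The smaller change was 3.43 for Ag5r, the last of them, and 3.06 for CG16762, the next gene. After CG16762 came Scp2, a calcium-binding protein (2.74), Cyp6g2, a cytochrome P450 (2.45), CG14280 (2.44), Cpr49Ac, a cuticle protein (2.42), and Srg2 (2.31). The count of 116 was 474 without either FOXO 1 week array and between 49 and 67 without any 1 array of the other groups. With centred array medians it was 513.

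**Figure D2:**
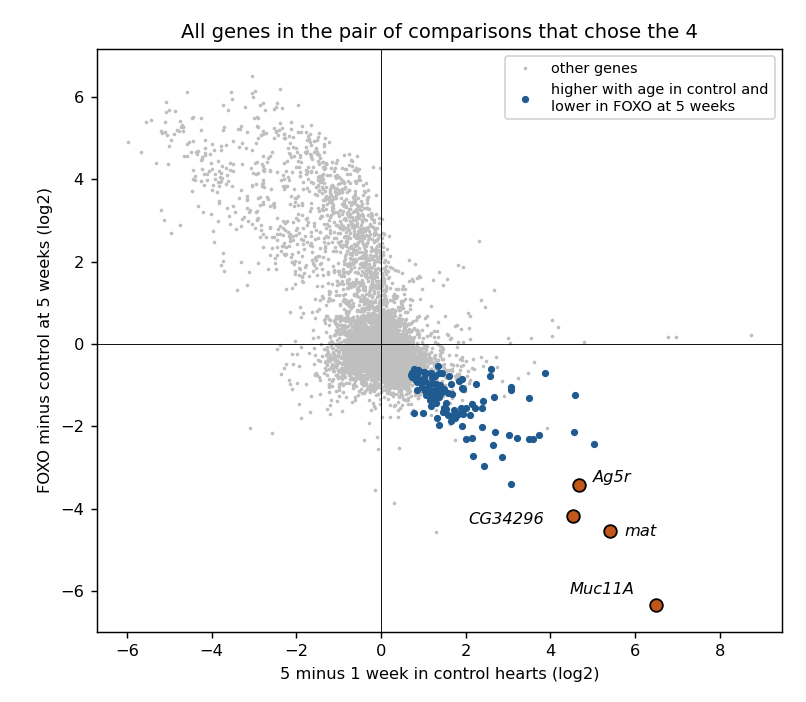
Difference between 5 and 1 week in control hearts (x axis, log2) against the FOXO minus control difference at 5 weeks (y axis, log2) for 11982 genes; grey dots are other genes, blue dots the genes called in both comparisons, and orange circles the 4 genes named. The 4 genes lie farthest into the lower right corner, with Muc11A at 6.50 and -6.35; both axes use the control 5 weeks arrays.

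Old FOXO hearts did not lie at the young control level for every gene. Between old FOXO and young control hearts the arrays did not overlap for mat, Ag5r and CG34296, all higher in old FOXO, as did 25.9% of all probe sets in that direction. The difference was 1.23 for Ag5r, 0.87 for mat, 0.34 for CG34296 and 0.15 for Muc11A. As a share of the control rise on the log2 scale this was 26.5%, 16.1%, 7.45% and 2.36%. These groups were used in the choice, so the differences carry no test.

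The FOXO 1 week arrays took no part in the choice, so 2 comparisons could be tested. The first asks whether FOXO altered the 4 genes in young hearts. None of the 4 passed, where 4.33% of probe sets were called. The Ag5r difference was 0.87 ± 0.19 (standard error), with a 95% interval of 0.42 to 1.31 for the gene taken alone and an adjusted p of 0.0555 in the moderated test of limma. It was higher on 2 of 2 FOXO arrays than on either control array, as were 24.4% of probe sets. The call of Ag5r depended on the setting. With 1 probe set per gene its adjusted p was 0.0485, with centred medians 0.0297 and with quantile normalization 0.0282. In 12 of the 16 alternatives it did not pass. With single arrays left out the difference ran from 0.661 to 1.075. Such a fit leaves 1 array in a group, whose spread is then taken from the other groups.

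The Muc11A difference at 1 week was 1.49 ± 0.65 (95% interval -0.05 to 3.04, adjusted p = 0.332), and both FOXO arrays lay above both control arrays. The value rested on 1 array: without FOXO 1 week replicate 1 the difference was 0.38, and without replicate 2 it was 2.61. The differences of mat (0.12 ± 0.28, 95% interval -0.55 to 0.80, adjusted p = 0.878) and CG34296 (-0.13 ± 0.22, -0.66 to 0.40, adjusted p = 0.83) came from groups that overlapped. Without FOXO 1 week replicate 1 the sign of both turned, to -0.19 and 0.12. Rises of the size seen with age in control hearts, on which the genes were chosen, lie outside all 4 intervals. The control 1 week arrays of this comparison were part of the choice.

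The second asks whether the genes changed with age in FOXO hearts. None of the 4 passed here either, where 15.2% of probe sets were called. The difference of mat from 1 to 5 weeks was 0.75 ± 0.28 (95% interval 0.08 to 1.42, adjusted p = 0.125), that of CG34296 0.47 ± 0.22 (-0.06 to 0.99, adjusted p = 0.197) and that of Ag5r 0.37 ± 0.19 (-0.08 to 0.81, adjusted p = 0.222). In each of these 3 both old arrays lay above both young ones, as did 19.9% of probe sets. Muc11A went the other way, with a difference of -1.34 ± 0.65 (-2.88 to 0.20, adjusted p = 0.202), and its arrays did not overlap, as for 37.8% of probe sets in that direction. The upper bounds of these intervals, at most 1.42, lie below the control differences of 4.52 to 6.50. That gap follows in part from the choice, which took genes high in control 5 weeks and low in FOXO 5 weeks.

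Single arrays moved the differences in this comparison too. Without FOXO 1 week replicate 1 that of mat was 1.07, and that of Muc11A shrank to -0.22. Without FOXO 1 week replicate 2 that of CG34296 was 0.72, and Muc11A fell by 2.46. With 1 array left in FOXO 1 week, its spread is taken from the other groups, so calls of these fits are not given. With each array centred on its median, the differences were 0.41 for mat, 0.13 for CG34296 and 0.03 for Ag5r. The FOXO 5 weeks arrays were part of the choice.

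**Figure D3:**
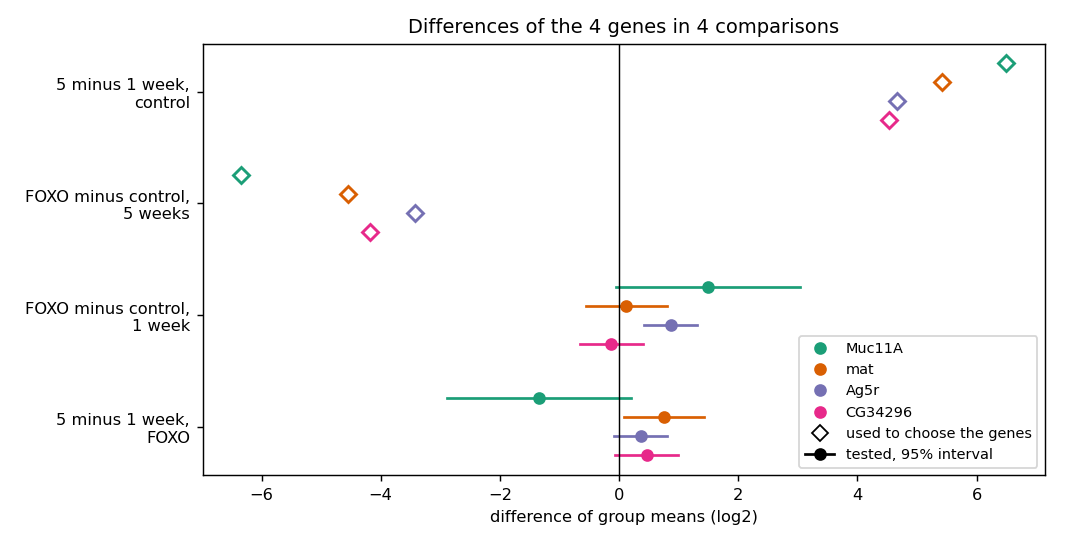
Difference of group means (x axis, log2) for the 4 genes, by colour, in 4 comparisons (rows); open diamonds are the comparisons used to choose the genes, without error, and filled circles with lines are the tested ones with their 95% intervals. The tested differences lie between -1.34 and 1.49, against 4.52 to 6.50 with age in control hearts, on which the genes were chosen.

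Over the 8 arrays the signals of the 4 genes ran closely together, as their choice implies. Pearson's r between them lay between 0.917 for Muc11A with CG34296 and 0.985 for mat with Ag5r. Without FOXO 1 week replicate 1 the former was 0.992. These values are descriptions over 8 arrays of 4 groups, in which the 2 old control arrays set most of the range.

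The genes most like each of the 4 were found among 1296 others whose group means spanned at least 2 on the log2 scale. For Muc11A they were CG6295 (r = 0.984), Scp2, CG14280, CG16762 and mat (0.945). CG6295, the first, had means of 4.98 ± 0.07 in control 1 week, 7.12 ± 0.31 in control 5 weeks, 5.16 ± 0.64 in FOXO 1 week and 4.84 ± 0.29 in FOXO 5 weeks. For mat they were Ag5r (0.985), CG34296, Scp2, CG16762 and Srg2 (0.964).

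For Ag5r the most alike were mat (0.985), CG9568, CG42857, CG34296 and Gr66a (0.962), a taste receptor for bitter compounds. Gr66a had means of 5.28 ± 0.14 in control 1 week, 7.66 ± 0.13 in control 5 weeks, 5.58 ± 0.46 in FOXO 1 week and 5.65 ± 0.42 in FOXO 5 weeks. For CG34296 they were CG16762 (0.982), Cyp6g2, mat, Pdf and CG9568 (0.974). Pdf, a neuropeptide of clock neurons, had means of 4.90 ± 0.09, 6.56 ± 0.02, 4.48 ± 0.12 and 4.69 ± 0.14 in the same group order. Each of these like genes was highest in control 5 weeks, as their selection by likeness to the 4 genes implies.

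No CAP gene other than Ag5r was called both higher with age in control hearts and lower in FOXO hearts at 5 weeks. The list held 32 names, of which CG5106 and scpr-C are the same gene, and 23 genes were measured, Ag5r among them. With age in control hearts 3 rose, Ag5r, CG16995 and CG34002, and 6 fell, where 2.34% of all probe sets were called higher, 4.57% lower and 6.91% in either direction. The median difference was -0.13, against 0.05 over all probe sets. The calls of CG16995 and CG34002 were each lost when any control array was left out (largest adjusted p = 0.198 and 0.144). The median was -0.27 for FOXO against control at 5 weeks, against -0.16 over all, with 5 higher and 3 lower, where 7.35% of probe sets were called higher, 3.07% lower and 10.4% in either direction. Besides Ag5r, CG9400 and CG30486 fell there. CG9400 read 5.79 and 6.14 in control 5 weeks and 4.47 and 4.28 in FOXO 5 weeks (-1.59 ± 0.22, adjusted p = 0.0029), and control 1 week was higher still, at 7.15 and 7.31. CG30486 lost its call without any 1 of the control 1 week and FOXO 5 weeks arrays or control 5 weeks replicate 1 (largest adjusted p = 0.198).

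CG31482, CG4270 and CG34049 were low in control 5 weeks, where Ag5r was high, and higher in control 1 week and FOXO 5 weeks. CG31482 read 7.14 and 7.20 in control 1 week, 4.46 and 4.07 in control 5 weeks, 4.72 and 5.17 in FOXO 1 week, with 9.30 and 9.22 in FOXO 5 weeks. CG4270 read 7.67 and 7.91, then 3.74 and 3.62, 3.91 and 4.72, and 7.84 and 7.49, in the same order. Both were high on the 4 arrays on which the late spermatogenesis markers were high. The CG4270 difference at 5 weeks was 3.98 ± 0.28 (adjusted p = 8.3e-05) and that of CG31482 4.99 ± 0.20 (adjusted p = 1.79e-05).

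At 1 week 0 CAP genes rose and 6 fell in FOXO hearts, where 0.464% of probe sets were called higher and 3.87% lower (median -0.32, against 0.04 over all probe sets). They were CG4270, CG31482, CG31296, CG6628, CG34049 and scpr-C. With age in FOXO hearts 7 rose and 1, CG9400, fell, where 9.43% were called higher and 5.82% lower (median 0.03, against -0.15). CG31296 read 7.29 and 6.80 in young control, 4.77 and 4.91 in young FOXO and 6.28 and 6.33 in old FOXO hearts: it fell by 2.20 at 1 week (adjusted p = 0.00135) and rose by 1.46 with age (adjusted p = 0.0026). The counts moved with single arrays: in control ageing 1 rose and 2 fell without either control 1 week array or without control 5 weeks replicate 1, and 1 rose and 3 fell without control 5 weeks replicate 2. At 1 week 3 fell without control 1 week replicate 1 and 4 without replicate 2, and 1 rose and 10 fell without FOXO 1 week replicate 2. At 5 weeks 6 rose and 6 fell without either FOXO 1 week array, and 3 rose and 2 or 3 fell without any other single array. With age in FOXO hearts 3 fell without FOXO 1 week replicate 1 and 2 without replicate 2.

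Among mucins and mucin-related genes, all 20 were measured, 1 of them under its newer name Sgs1. With age in control hearts Muc11A, Muc14A and Mur18B rose and Muc68Ca fell, where 2.34% of all probe sets were called higher and 4.57% lower (median of the list 0.19, against 0.05 over all). At 5 weeks Muc11A, Mur18B and Muc68Ca were lower in FOXO hearts and 0 higher, where 3.07% were called lower and 7.35% higher (median -0.28, against -0.16). Mur18B was the mucin-related gene nearest to the pattern: it read 6.78 and 6.86 in control 1 week, 8.09 and 8.49 in control 5 weeks, 5.80 and 6.06 in FOXO 1 week, with 6.36 and 6.92 in FOXO 5 weeks. Its FOXO minus control difference at 5 weeks was -1.65 ± 0.23 (adjusted p = 0.00337) and its rise with age in control hearts 1.47 ± 0.23 (adjusted p = 0.0108). The latter call was lost without either control 1 week array or control 5 weeks replicate 2 (largest adjusted p = 0.1).

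Muc14A read 3.53 and 3.50 in young control hearts and 5.76 and 4.87 in old ones, against 3.51 and 3.77 in young and 4.60 and 4.41 in old FOXO hearts. Its call with age in control hearts (1.80 ± 0.28, adjusted p = 0.0103) did not hold when either young control array was left out (largest adjusted p = 0.0866). Muc68Ca was highest in control 1 week, at 8.65 and 8.80, and lowest in FOXO 5 weeks, at 5.75 and 6.31. Muc68Ca and Muc96D fell in FOXO hearts at 1 week, where 3.87% of probe sets were called lower. Muc68Ca fell with age in FOXO hearts, where 5.82% were called lower. Leaving out any control array ended the calls of Muc96D at 1 week (largest adjusted p = 0.329) and of Muc68Ca with age in control (0.133) and in FOXO hearts (0.174). So did either FOXO 5 weeks array for Muc96D, and replicate 1 of that group for Muc68Ca in FOXO hearts. Without FOXO 1 week replicate 2, 2 mucin genes rose and 5 fell at 1 week, and 3 rose and 3 fell with age in FOXO hearts.

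**Figure D4:**
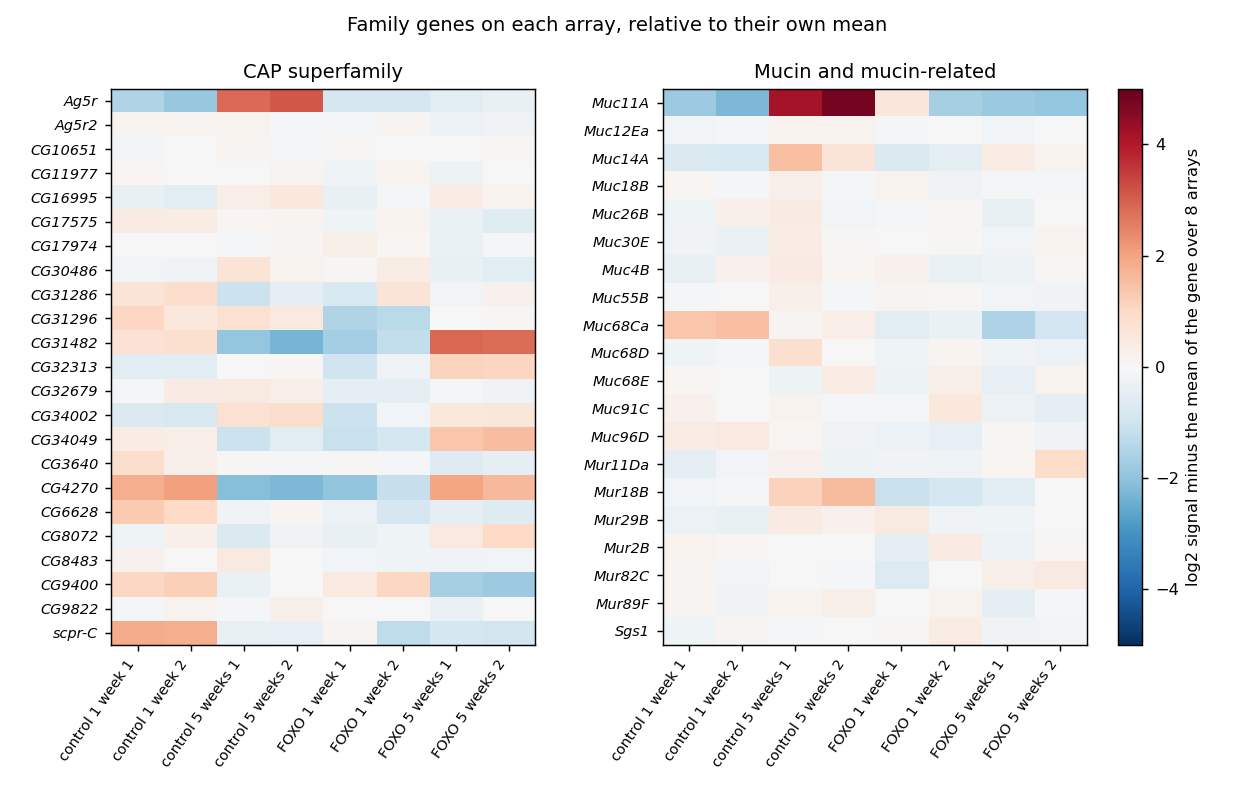
Log2 signal minus the mean of each gene over the 8 arrays (colour) for the measured CAP genes (left) and mucin and mucin-related genes (right), in rows, on each array, in columns. Ag5r and Muc11A head the panels and are deep red on both control 5 weeks arrays; Ag5r2 stays near 0 on all arrays, and CG31482 and CG4270 are red in control 1 week and FOXO 5 weeks and blue in the other groups. Colours compare arrays within a row, not genes with each other.

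Of the 3 genes on each side of each member on its chromosome, 17 were measured. The closest relative by place is Ag5r2, which lies next to Ag5r: it read 4.28 and 4.23 in control 1 week, 4.26 and 4.00 in control 5 weeks, 4.03 and 4.23 in FOXO 1 week, with 3.82 and 3.91 in FOXO 5 weeks. Its difference with age in control hearts was -0.13 ± 0.15 (95% interval -0.49 to 0.24, adjusted p = 0.768). Of the 17 neighbours 0 passed with age in control hearts in limma, where 6.91% of all probe sets were called, so that 0 of 17 is near that background. At 5 weeks moon, a germline gene of the piRNA pathway beside Muc11A, was lower in FOXO hearts (1.99-fold, adjusted p = 0.0237), a call that held only when a FOXO 1 week array was the one left out (largest adjusted p = 0.149). Uch-L5R and CG5347 were higher, the latter not without control 5 weeks replicate 2. Of all probe sets 3.07% were called lower and 7.35% higher in that comparison. With age in FOXO hearts Uch-L5R (2.05 ± 0.28) and CG5347 (1.03 ± 0.16) rose and Ten-a and rut fell, where 15.2% of all probe sets were called. The call of Ten-a was lost without either FOXO 5 weeks array (largest adjusted p = 0.0916), and that of rut without any control or FOXO 5 weeks array (0.116). At 1 week 0 neighbours passed, where 4.33% were called. Glut1, a glucose transporter gene near mat, lay between 5.08 and 5.46 in its group means.

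Markers of other tissues were set beside the 4 genes. Of 28 midgut markers 18 were measured, and their median was 5.88 and 5.87 on the control 5 weeks arrays and between 4.96 and 5.24 on the other 6. With age in control hearts 5 of them rose and 0 fell, where 2.34% of all probe sets were called higher and 4.57% lower. At 5 weeks 4 were lower and 1 higher in FOXO hearts, where 3.07% were called lower and 7.35% higher. With age in FOXO hearts, a comparison in which none of the 4 genes passed, 7 midgut markers rose and 0 fell, where 9.43% were called higher and 5.82% lower. The lysozyme LysX read 9.30 and 9.47 in control 5 weeks but 10.11 and 10.47 in FOXO 5 weeks, and the trypsin alphaTry 8.37 and 8.61 against 7.28 and 7.75. The log2 of the summed midgut signal was 12.24 and 12.35 in control 5 weeks and 12.35 and 12.66 in FOXO 5 weeks. It was 11.01 and 11.00 in control 1 week and 9.93 and 11.04 in FOXO 1 week. The sum is weighted to the brightest markers, and PGRP-SC2 was the brightest on every array. PGRP-SC2 read 11.23 and 11.36 in control 5 weeks and 11.57 and 11.89 in FOXO 5 weeks. In FOXO 5 weeks the list medians were 5.14 and 5.24. The count at 5 weeks was 0 lower without either control 5 weeks array or either FOXO 5 weeks array, and 8 lower without either FOXO 1 week array. The part of gut tissue in the result was not tested.

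The 9 measured Malpighian tubule markers had medians between 5.14 and 6.04, and 5.68 and 5.51 on the control 5 weeks arrays, within that range. With age in control hearts 0 of 9 passed in limma, where 6.91% of all probe sets were called, and without either FOXO 1 week array 1 rose and 2 fell. At 5 weeks Irk3, a potassium channel gene, was lower in FOXO hearts, a call lost when any control or FOXO 5 weeks array was left out. Irk3 read 5.68 and 5.51 in control 5 weeks and at most 5.03 on the other 6 arrays. The 4 hindgut markers had medians between 3.97 and 4.86, with 4.37 and 4.15 on the control 5 weeks arrays. Fat body markers had medians between 12.59 and 13.04, and of these 10 genes Lsp2, a storage protein, was called higher with age in control hearts and lower in FOXO hearts at 5 weeks.

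The sex and germline markers differed between several of the groups compared, and followed the 4 genes on only part of the arrays. The 4 genes lay below the array median where the late spermatogenesis markers were high (control 1 week and FOXO 5 weeks). On FOXO 1 week replicate 1 these markers were low (median 4.98, against 4.90 and 4.69 in control 5 weeks). There mat, Ag5r and CG34296 also lay below the array median and Muc11A above it. On the FOXO 5 weeks arrays and FOXO 1 week replicate 1 the female-specific markers had medians of 13.19 to 13.44, at least as high as in control 5 weeks (13.03 and 13.04). On these 3 arrays mat, Ag5r and CG34296 read at most 6.39, and Muc11A at most 7.12. In control hearts both lists changed with age. The late spermatogenesis medians were 8.55 and 8.51 at 1 week and 4.90 and 4.69 at 5 weeks. Those of the female-specific list were 6.75 and 6.59, then 13.03 and 13.04. Age and what these markers stand for, sex or testis tissue, therefore cannot be told apart in control hearts. The late spermatogenesis markers also separated FOXO 5 weeks (9.68 and 9.47) from control 5 weeks. Of the 27 measured, 26 were called higher in FOXO hearts at 5 weeks, where 7.35% of all probe sets were. At 1 week 21 were called lower in FOXO hearts (3.87% of all), and with age in FOXO hearts 25 higher (9.43%). In these comparisons too, FOXO or age cannot be told apart from what these markers stand for. The part of other tissues in these differences was not tested.

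**Figure D5:**
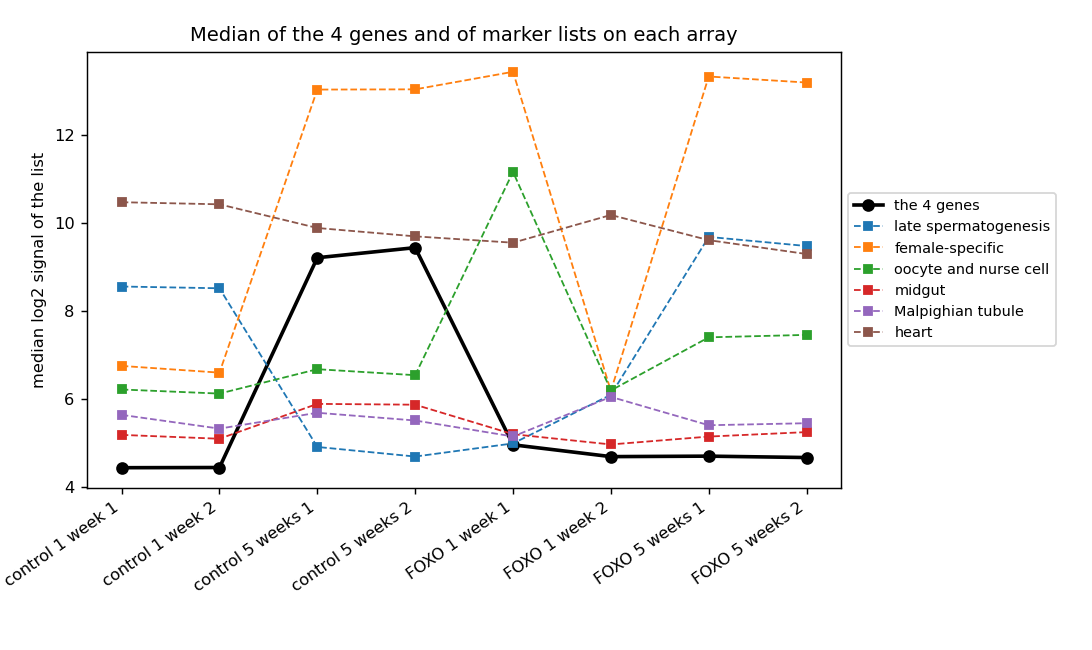
Median log2 signal (y axis) of the 4 genes (black) and of 6 marker lists (colours) on each array (x axis, group and replicate); lines only join the points of a list. The 4 genes have medians of 9.21 and 9.44 in control 5 weeks and of 4.43 to 4.95 elsewhere, while the female-specific list is also high in FOXO 5 weeks and on FOXO 1 week replicate 1. Lists are to be read along the arrays, not against each other.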

How the data were processed

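Affymetrix arrays, 8 in all and 2 for each of 4 groups, measured the RNA of fly hearts. The authors deposited log2 values, 1 per probe set, already on a common scale (the unit follows from their range). How probes were summarised and normalized is not given in the sources used. Per the submitters' processing notes, limma was used. Of 18952 probe sets, 183 array controls were left out and 18769 tested; 13647 carried 1 gene symbol, 402 several and 4720 none. Each of 11982 genes took its brightest probe set.

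In R 4.3.3 with limma 3.58.1, 1 mean per group was fitted (4 residual degrees of freedom) with eBayes, two-sided, and Benjamini-Hochberg adjusted p under 0.05 over all probe sets. The number of arrays limits the precision. A fit without 1 array leaves 1 array in its group, whose spread is then taken from the other groups. The labels do not say whether replicates came from separate flies, so p-values reflect the spread of these arrays alone, and part of it may be technical. The members, lists and rules were chosen with earlier results of these data known. Named besides the 4 genes were 3 neighbours on each side, 5 genes most alike, the 10 leading genes of the pattern, and members of the 16 lists (up to 4 with the smallest p, and those called) where described. A search for genes with similar proteins was not run. Chromosomes and neighbours come from RefSeq, Drosophila Release 6. The 9 kinds of alternative were normalization, centring, a dim filter, the variance model, array weights, 1 probe set per gene, a replicate block, only the 4 compared arrays, and each array left out; their use for the count of 116 and for family and neighbouring genes was added after seeing the data. The procedure was tested on simulated data.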

Additional observations from a re-analysis of the deposited data

Results flagged for a closer look

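The order of the Muc11A arrays differed in direction between the crosses and between the ages. Neither comparison with FOXO 1 week passed in limma (adjusted p = 0.332 against control and 0.202 with age). Both FOXO arrays lay above both control arrays at 1 week and below both at 5 weeks, so the FOXO effect at 5 weeks minus that at 1 week was -7.84 on the log2 scale. The age effect in FOXO hearts minus that in control hearts is the same quantity, -7.84, by construction, and in it both FOXO arrays were lower and both control arrays higher at 5 weeks. Without FOXO 1 week replicate 1, which carried the oocyte transcripts, the Muc11A differences were 0.38 at 1 week and -0.22 with age in FOXO. For Ag5r both FOXO arrays were higher than both control arrays at 1 week and lower at 5 weeks, and the FOXO effect at 5 weeks minus that at 1 week was -4.30. The Ag5r difference at 1 week did not pass in limma (adjusted p = 0.0555). Without overlap, 24.4% of all probe sets were higher in FOXO at 1 week and 45.1% lower at 5 weeks. With age in FOXO hearts 37.8% were lower without overlap. The differences of -7.84 and -4.30 were not tested, because the comparison at 5 weeks chose the genes.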

How the results depend on the processing

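The differences of the 4 genes in the comparisons that chose them kept their sign under all alternatives run. The choice took genes with large differences there, so the kept sign is a description and no support. Values ran from 4.30 to 6.81 for control ageing and from -6.71 to -3.30 for FOXO at 5 weeks. The gene mat dropped out without the dimmest 40% of probe sets. At 1 week CG34296 turned to 0.007 with centred medians, and with single arrays left out it ran from -0.383 to 0.124 and mat from -0.194 to 0.442. Probe sets called numbered 1297 for control ageing (605 to 3279 with an array left out), 2861 for FOXO ageing (1670 to 6698), 813 for FOXO at 1 week (400 to 5377) and 1956 for FOXO at 5 weeks (1368 to 4278). With arrayWeights control ageing gave 3681, FOXO ageing 1755 and FOXO at 5 weeks 3342. With only the 4 compared arrays the counts were 3627, 1421, 274 and 3380 in the order above. Centred medians gave 9415 for FOXO ageing and 9573 for FOXO at 5 weeks, and moved the share of higher calls from 33.9% to 52.6% in control ageing, from 61.8% to 16.7% in FOXO ageing and from 70.6% to 13.9% at 5 weeks. Quantile normalization gave 51.8% higher at 5 weeks. Without dim probe sets FOXO ageing gave 1865 and FOXO at 5 weeks 1152. The cause was not tested. The count of 116 genes was also 370 with arrayWeights, 394 with the 4 compared arrays and 70 without dim probe sets. The labels share replicate numbers but do not say what they mark, and the replicate differences of the groups correlated at 0.0133 to 0.332. With the replicate block the counts were 1229, 2735, 743 and 1898 in the order above, and no call of the 4 genes in the tested comparisons changed.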
